A study of Oryza sativa Japonica Group with 12 samples.

Results

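TDR, EAT1 and RTS are 3 anther genes of rice. They were found by symbol or synonym in the gene table of the Affymetrix Rice GeneChip, where each had 1 probe set, and together they are 3 of the 17905 genes and 3 of the 57258 probe sets measured. EAT1 is listed under LOC4336865, with the synonyms DTD and BHLH141, and RTS under LOC4326940. RNA came from whole panicles of japonica rice grown in a greenhouse in natural daylight, and 20 panicles of 10 plants were pooled for each sample. The 4 groups of 3 biological replicates were fst before flowering (MBF), WT before flowering (WBF), fst at 5 days after pollination (5 DAP, M5D) and WT at 5 DAP (W5D). The fst mutant, called cyn in the labels, arose spontaneously in Junambyeo. It carries a frame-shifting deletion in FST (OsMADS29), a MADS-box gene needed for ovule and seed development. It is a single allele of natural origin. In the description field the MBF and M5D arrays are given as "cyn wild lines". Their titles, source names and genotypes name the mutant, and these were followed.

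The tapetum is the innermost cell layer of the anther wall. It feeds the developing pollen, supplies lipids and proteins for the pollen wall, and is then removed by programmed cell death. TDR (TAPETUM DEGENERATION RETARDATION) is a basic helix-loop-helix (bHLH) transcription factor needed for this breakdown. EAT1 (ETERNAL TAPETUM 1) is a second bHLH factor, which acts downstream of TDR and switches on aspartic proteases of tapetal cell death. RTS (RICE TAPETUM-SPECIFIC) encodes a small protein of the tapetum that is needed for male fertility. The comparison of fst with WT asks how these genes of the male organ stood in panicles of the fst mutant. The paper reports FST promoter activity in stamen primordia and the anther wall as well as in the ovule. It also reports that anthers developed normally in fst and that its pollen was viable.

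Each value is a signal, the brightness of a probe set on a linear scale after the authors' normalization. Groups were compared by the difference of their mean log2 signals, called the log2 change, with limma. A change passed the test where its p was under 0.05 after Benjamini-Hochberg adjustment across the whole set of probe sets. The signals of the arrays were alike in distribution. The lower quartile of an array lay between 10.1 and 11.3, its median between 30.8 and 33.6 and its upper quartile between 199 and 227. Arrays of a group correlated at 0.990 to 0.996. No batch or date is given in the labels. The number of arrays limits the precision of every value, and a fold change against a signal near the lower quartile depends on the background correction. In a pooled panicle, fewer tapetal cells and less transcript per cell cannot be told apart. The labels give the earlier stage only as before flowering, and the paper reports that fst plants flowered earlier than WT. A difference in anther stage between MBF and WBF cannot be told apart from these either. The paper does not name the WT line used for the arrays. TDR is listed on chromosome 2, as FST is, EAT1 on chromosome 4 and RTS on chromosome 1. Whether the lines also differed outside FST, near it or elsewhere, was not tested. The labelled organ was checked by 5 MADS-box genes that specify the stamen (MADS2, MADS4, MADS16, MADS3 and MADS58). MADS2, MADS4 and MADS16 also act in the lodicules and MADS3 and MADS58 in the carpel, so they do not measure stamen RNA alone. Their summed signal before flowering was 21401 to 22899 in MBF and 19949 to 22210 in WBF.

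Before flowering, all 3 genes were lower in fst panicles than in WT panicles. The background is that 2.80% of all probe sets passed the test in this direction, 1.81% in the opposite one and 4.62% in either. TDR and EAT1 were lower on every fst array than on any WT array, and RTS was lower with a wide spread and overlapping arrays. The share of all probe sets without overlap in this comparison was not counted. GAMYB, API5 and MSP1, given below, did not overlap between the genotypes either, and none of them passed the test.

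TDR gave signals of 119, 99.1 and 106 on the MBF arrays, against 260, 254 and 297 on the WBF arrays. The groups did not overlap. The means were 108 ± 10.2 in MBF and 271 ± 23.0 in WBF (SD, n = 3 arrays each). Its log2 change was -1.33 (SE 0.13, 95% interval -1.62 to -1.04), or 2.51-fold lower, with an adjusted p of 0.000212 from limma. Of all probe sets, 191 (0.334%) had a change at least as low. An exact permutation test of 3 arrays against 3 gave p = 0.1, which is the smallest it can give.

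EAT1 gave signals of 60.0, 45.4 and 37.8 on the MBF arrays, against 112, 141 and 125 on the WBF arrays. Here too the highest fst array lay below the lowest WT array. The means were 47.7 ± 11.3 in MBF and 126 ± 14.4 in WBF (SD, n = 3 arrays each). The log2 change was -1.42 (SE 0.16, 95% interval -1.76 to -1.08), or 2.67-fold lower, with an adjusted p of 0.000393 from limma, and 164 probe sets (0.286%) changed at least as far down. TDR and EAT1 thus fell by sizes whose intervals overlap. EAT1 varied more among fst arrays (coefficient of variation 23.6%) than TDR (9.47%), and the difference in spread was not tested.

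**Figure D1:**
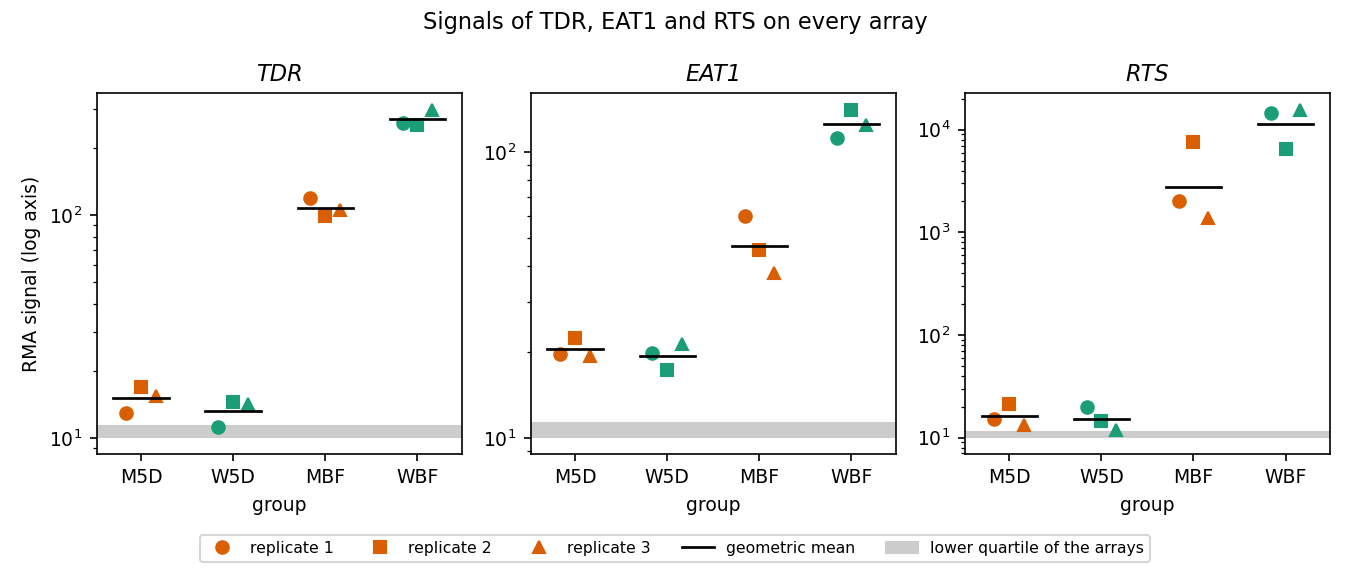
RMA signal (log axis) of TDR, EAT1 and RTS on each of the 12 arrays, with fst in orange and WT in green, a symbol per replicate number, black bars for the geometric means and a grey band for the lower quartiles of the arrays (10.1 to 11.3). Before flowering, the fst arrays of TDR and EAT1 lie below all WT arrays, RTS of MBF replicate 2 (7607) lies above WBF replicate 2 (6518), and at 5 DAP all 3 genes lie between 11.2 and 22.3.

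RTS gave bright signals before flowering, and they were uneven between replicates. It gave 2008, 7607 and 1371 on the MBF arrays, against 14625, 6518 and 15621 on the WBF arrays. MBF replicate 2 was 3.79-fold above the next MBF array and above WBF replicate 2, so the groups overlapped. WBF replicate 2 in turn was the lowest WT array, with the next one 2.24-fold above it. The means were 3662 ± 3431 in MBF and 12255 ± 4993 in WBF (SD, n = 3 arrays each), and the coefficients of variation were 93.7% in MBF and 40.7% in WBF. The log2 change was -2.05 (SE 0.51, 95% interval -3.16 to -0.94), or 4.14-fold lower, with an adjusted p of 0.0400 from limma. Only 73 probe sets (0.127%) changed at least as far down. The exact permutation test gave p = 0.2 for RTS.

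The call on RTS depended on single arrays, whereas those on TDR and EAT1 did not. With each of the 12 arrays left out in turn, the adjusted p of limma ran from 0.000222 to 0.00181 for TDR and from 0.000224 to 0.00313 for EAT1. For RTS it ran from 0.00264 to 0.144. The RTS call was lost without MBF replicate 1 (adjusted p = 0.131), MBF replicate 3 (0.113), WBF replicate 1 (0.144) or WBF replicate 3 (0.107), and also without M5D replicate 1 (0.0511), W5D replicate 2 (0.0573) or W5D replicate 3 (0.0527), which enter through the pooled spread. Without MBF replicate 2 the log2 change of RTS was -2.78 with an adjusted p of 0.00264. With both arrays numbered 2 before flowering left out, a setting chosen after the RTS signals were seen, it was -3.19 (SE 0.28, adjusted p = 0.000477 from limma). The same setting gave -1.31 for TDR (adjusted p = 0.00578) and -1.31 for EAT1 (adjusted p = 0.0128).

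**Figure D2:**
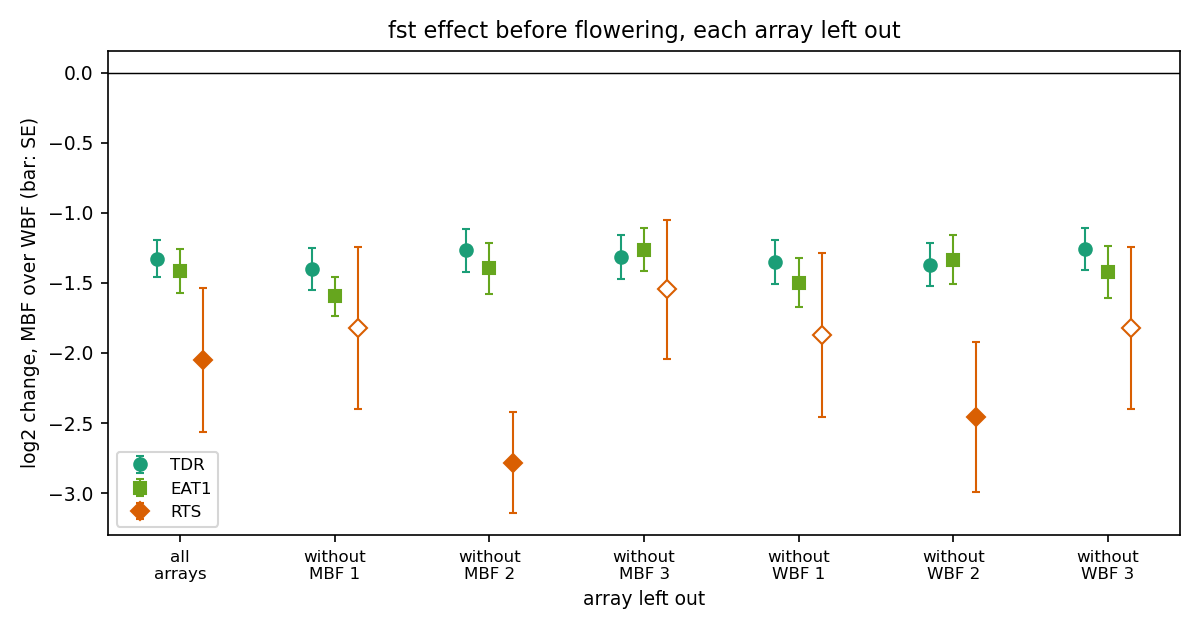
log2 change of TDR, EAT1 and RTS before flowering, MBF over WBF, with all arrays and with each of the 6 arrays before flowering left out (bars, SE from limma; filled symbols, adjusted p under 0.05; open symbols, not past it). TDR and EAT1 stay between -1.26 and -1.60 and filled, while RTS moves between -1.55 and -2.78 and is open without MBF 1, MBF 3, WBF 1 or WBF 3.

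Arrays with the number 2 stood apart for RTS but not for TDR or EAT1. RAFTIN1, a tapetal protein of the orbicules that carry wall material to the pollen, gave 246, 412 and 276 on the MBF arrays, against 593, 416 and 819 on the WBF arrays. C6 (OsC6), a lipid transfer protein made in the tapetum, gave 151, 463 and 162 on the MBF arrays, against 1258, 218 and 851 on the WBF arrays. In both genes, as in RTS, MBF replicate 2 was the highest fst array and WBF replicate 2 the lowest WT array. In TDR this order was not complete. WBF replicate 2 (254) was the lowest WT array, close to WBF replicate 1 (260), but MBF replicate 2 (99.1) was the lowest fst array. In EAT1 neither part was seen, as MBF replicate 2 (45.4) was the middle fst array and WBF replicate 2 (141) the highest WT array.

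The order of the arrays seen in RTS was searched for in all probe sets. A criterion chosen after the RTS signals were seen asked for MBF replicate 2 at least 2-fold above both other MBF arrays and WBF replicate 2 at least 2-fold below both other WBF arrays. The first condition was met by 23 probe sets, the second by 90 and both by 8 (0.014% of all), of which 7 name 1 gene. They include RTS, C6 and LOC4348109, which the study's annotation calls a lipid transfer protein family member. LOC4348109 gave 11.6, 39.5 and 11.04 on the MBF arrays, against 9998, 257 and 3058 on the WBF arrays. Of the 8 probe sets, 5 were at least 4-fold lower at 5 DAP than before flowering in WT, RTS among them. The share of all probe sets at this fold was not counted. A fall in WT at least as large as that of the regulator TIP2 (4.51-fold) was seen in 1066 (1.86%). LOC4348123 went the other way, with 82.4, 33.0 and 100 in WBF and 3686, 5001 and 4542 in W5D, and so did the probe set without a gene.

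**Figure D3:**
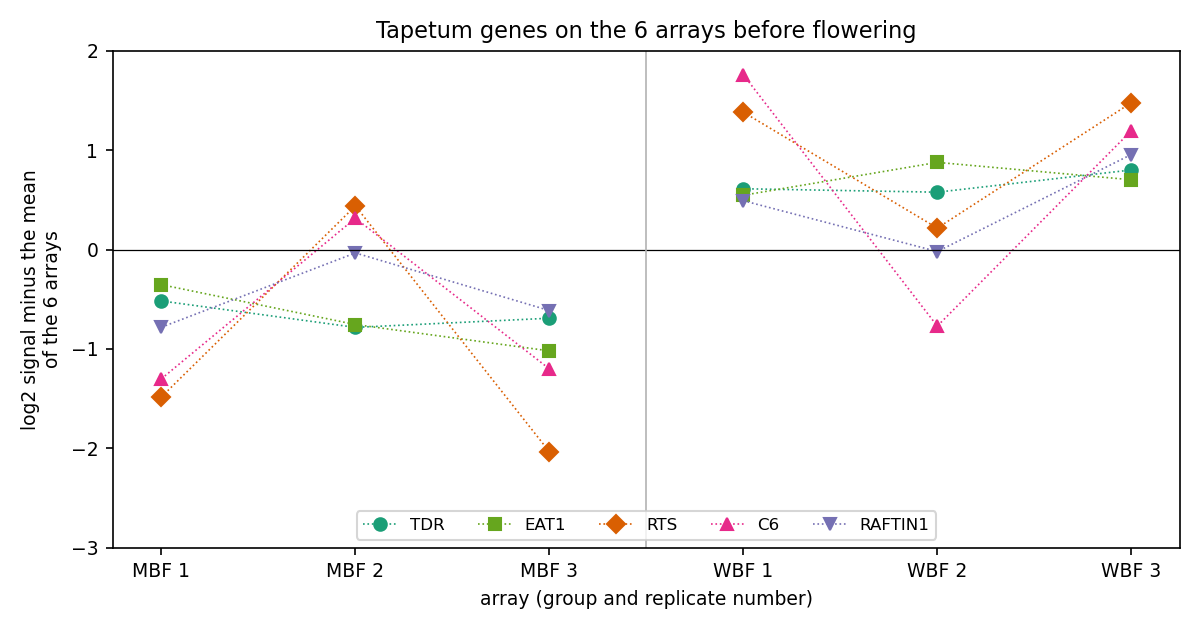
log2 signal of 5 tapetum genes on the 6 arrays before flowering, each relative to its own mean over these arrays; dotted lines join the points of a gene within a group and carry no order. RTS, C6 and RAFTIN1 are highest among fst arrays in MBF 2 and lowest among WT arrays in WBF 2, while TDR and EAT1 are low on all MBF arrays and high on all WBF arrays.

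At 5 DAP the genotypes were not told apart by any of the 3 genes, and all 3 were near the lower end of the signal range. TDR gave 13.0, 17.0 and 15.4 in M5D and 11.2, 14.4 and 14.2 in W5D. EAT1 gave 19.6, 22.3 and 19.4 in M5D and 19.8, 17.3 and 21.4 in W5D. RTS gave 15.03, 21.2 and 13.1 in M5D and 20.0, 14.5 and 11.9 in W5D. The groups overlapped in each gene. The log2 changes from limma were 0.19 for TDR (95% interval -0.10 to 0.48, adjusted p = 0.478), 0.07 for EAT1 (-0.27 to 0.41, adjusted p = 0.867) and 0.10 for RTS (-1.01 to 1.21, adjusted p = 0.956). The interval of RTS leaves room for a 2-fold difference in either direction, which these arrays could not show. None of the 3 passed at an unadjusted p under 0.05 either. In this comparison 11.6% of all probe sets passed the test, 6.22% higher and 5.41% lower in fst.

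The 3 genes fell between the stages in both genotypes, by different amounts. Of all probe sets, 26.7% passed the test between the stages in fst (15.6% higher and 11.2% lower at 5 DAP) and 31.3% in WT (16.4% higher and 14.9% lower). RTS had the widest range of the 3, with 15.4 ± 4.13 in W5D and 12255 ± 4993 in WBF (SD, n = 3 arrays each), which is -9.56 on the log2 scale (757-fold lower, adjusted p = 1.04e-08 from limma). Only 10 probe sets (0.0175%) fell at least as far as RTS in WT. In fst the log2 change of RTS was -7.42 (171-fold lower, adjusted p = 1.34e-07), with 16.5 ± 4.25 in M5D and 3662 ± 3431 in MBF. Without MBF replicate 2 it was -6.69 (103-fold lower, adjusted p = 4.69e-08). The folds of RTS are taken against signals near the lower quartile at 5 DAP, so their size depends on the background correction.

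TDR was 20.5-fold lower in W5D than in WBF (log2 change -4.36, adjusted p = 3.18e-11 from limma) and 7.15-fold lower in M5D than in MBF (-2.84, adjusted p = 2.64e-09). EAT1 was 6.45-fold lower in W5D than in WBF (-2.69, adjusted p = 2.64e-08) and 2.29-fold lower in M5D than in MBF (-1.20, adjusted p = 6.43e-05). The levels of TDR and of EAT1 thus stood in the order WBF, MBF and then both groups at 5 DAP, which did not differ beyond their spread. RTS had the same order of means, with WBF and MBF overlapping.

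The difference of the fst effects between the stages passed the test for TDR and EAT1. At 5 DAP both genes gave signals below the array median (30.8 to 33.6) in both genotypes. The difference contains the change before flowering. Whether an effect of that size would have shown at the signals of 5 DAP was not tested. The difference, 5 DAP minus before flowering, was 1.52 on the log2 scale for TDR (SE 0.19, adjusted p = 0.000593 from limma) and 1.49 for EAT1 (SE 0.22, adjusted p = 0.00201). For RTS it was 2.15 (SE 0.72, adjusted p = 0.101), which did not pass the test. Without MBF replicate 2 it was 2.88 for RTS (adjusted p = 0.00721), and with both arrays numbered 2 before flowering left out 3.28 (SE 0.36, adjusted p = 0.00101). In this comparison 6.35% of all probe sets passed the test, 3.60% in the positive and 2.75% in the negative direction. The genotype, stage and difference comparisons share arrays and are not independent of each other.

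Of 6 regulators of the tapetum with a probe set, 2 were lower in fst before flowering, TDR and EAT1 themselves. The other 4 did not pass the test. Of all probe sets, 2.80% were called lower and 1.81% higher in this comparison. TIP2 (bHLH142), a bHLH factor that binds TDR, gave means of 25.8 ± 3.89 in MBF and 28.5 ± 4.02 in WBF (SD, n = 3 arrays each), with overlapping arrays and a log2 difference of -0.15 (adjusted p = 0.576 from limma). GAMYB, a gibberellin-regulated MYB factor that acts upstream in anthers, had 1125 ± 46.1 in MBF and 1254 ± 61.4 in WBF (log2 change -0.16, adjusted p = 0.503). The change of PTC1, a PHD-finger factor of tapetal cell death, was 0.08 (adjusted p = 0.776) at signals close to the lower quartile. API5, an apoptosis inhibitor homologue of the tapetum, had a change of -0.33 (adjusted p = 0.0819). All fst arrays of GAMYB and of API5 lay below all WT arrays. At an unadjusted p of limma under 0.05, 3 of the 6 regulators were lower (TDR, EAT1 and API5) and 0 higher, beside 10.1% lower and 11.2% higher of all probe sets.

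Among genes that act earlier in the anther, none of 3 passed the test in limma, and 1 of them was lower at an unadjusted p under 0.05. MSP1, the receptor kinase that limits the number of sporogenous cells, had a log2 difference of -0.28 (adjusted p = 0.180). The values were 0.35 for its ligand TDL1A (adjusted p = 0.257) and 0.13 for DTM1, a protein of the early tapetum (adjusted p = 0.517).

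In the list of pollen wall and tapetal lipid genes, 3 of 5 were lower in fst before flowering, beside 2.80% of all probe sets. RTS was among them, and none was higher by the adjusted or the unadjusted p of limma. RAFTIN1 changed by -0.95 (SE 0.22, adjusted p = 0.0297), with means of 311 ± 88.8 in MBF and 609 ± 202 in WBF (SD, n = 3 arrays each) and groups that just failed to overlap. This call was lost without MBF replicate 1 (adjusted p = 0.109), MBF replicate 3 (0.0821), WBF replicate 1 (0.0948) or WBF replicate 3 (0.0824). C4 (OsC4), a lipid transfer protein of the anther, changed by -0.80 (SE 0.16, adjusted p = 0.0145) with no overlap, and was lost without MBF replicate 2 (0.0615) or WBF replicate 3 (0.0525). C6 did not pass, with a log2 difference of -1.46 (SE 0.54, adjusted p = 0.143). CYP703A3, a fatty acid hydroxylase of pollen wall lipids, was near the lower quartile in every group (log2 change -0.16, adjusted p = 0.558).

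Of 6 genes of meiosis, 2 were lower in fst before flowering, beside 2.80% of all probe sets. MEL1, an argonaute protein of germ cells, gave 199, 235 and 217 on the MBF arrays, against 308, 430 and 501 on the WBF arrays. Its log2 change was -0.90 (SE 0.16, adjusted p = 0.00674 from limma), and it was the only one of these 4 other calls that held with every single array left out. It was lost with both arrays numbered 2 before flowering left out (-0.92, adjusted p = 0.0635). DMC1, a meiotic recombinase, changed by -0.59 (SE 0.14, adjusted p = 0.0280) between low signals of 26.2 ± 2.49 in MBF and 39.3 ± 1.96 in WBF (SD, n = 3 arrays each), and this call was lost without any one of MBF replicate 1 (0.0974), MBF replicate 2 (0.0788), WBF replicate 1 (0.0777), WBF replicate 2 (0.101) or WBF replicate 3 (0.0590). PAIR1, PAIR2, MER3 and HEI10, which act in chromosome pairing and crossover formation, had changes between -0.20 and 0.05 and did not pass.

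Neither of 2 proteases of tapetal cell death passed the test before flowering, and 1 was higher at an unadjusted p under 0.05. AP25, an aspartic protease that EAT1 switches on in anthers, gave 159, 241 and 181 on the MBF arrays, against 123, 139 and 132 on the WBF arrays. Its log2 change before flowering was 0.54 (SE 0.17, adjusted p = 0.0830 from limma), with no overlap between the groups. At 5 DAP AP25 was higher in fst, at 3867 ± 472 in M5D and 1607 ± 299 in W5D (SD, n = 3 arrays each), and the log2 change was 1.28 (SE 0.17, adjusted p = 0.000263). AP25 was also higher at 5 DAP than before flowering in fst (log2 change 4.33, adjusted p = 2.53e-10) and in WT (3.60, adjusted p = 2.06e-09), whereas EAT1 was lower. For CP1, a cysteine protease of the anther, the log2 difference before flowering was 0.01 (adjusted p = 0.988). Neither of the cell wall invertases INV4 and CIN4, enzymes that cleave sucrose, passed the test. Their log2 differences were -0.06 for INV4 (SE 0.76, adjusted p = 0.975) and -0.09 for CIN4 (SE 0.27, adjusted p = 0.876), and neither had an unadjusted p under 0.05.

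Over these 6 anther lists together, 21 genes other than TDR, EAT1 and RTS had a probe set. Whether the signals of these 21 genes came from the anther alone was not tested. Of them, 4 (C4, RAFTIN1, MEL1 and DMC1) were lower before flowering, 0 were higher and 17 did not pass the adjusted p of limma, beside 2.80% lower and 1.81% higher of all probe sets. At an unadjusted p under 0.05, 7 were lower and 1 was higher, beside 10.1% lower and 11.2% higher of all probe sets. Their median log2 change was -0.15, beside 0.04 over all probe sets. At 5 DAP 1 of the 21 was higher (AP25) and 3 were lower, API5 (-0.42, adjusted p = 0.0139), CP1 (-0.61, adjusted p = 0.0280) and HEI10 (-0.49, adjusted p = 0.0452), beside 6.22% higher and 5.41% lower of all probe sets, with a median of 0.09 beside 0.01 over all probe sets. The calls on API5, CP1 and HEI10 were lost without M5D replicate 2 (adjusted p = 0.0502, 0.0757 and 0.148 in this order) and without W5D replicate 2 (0.0672, 0.122 and 0.0639). The call on CP1 was also lost without M5D replicate 3 (0.105) or W5D replicate 3 (0.0559), and that on HEI10 without any array other than WBF replicate 3 and M5D replicate 1 (0.0506 to 0.188).

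**Figure D4:**
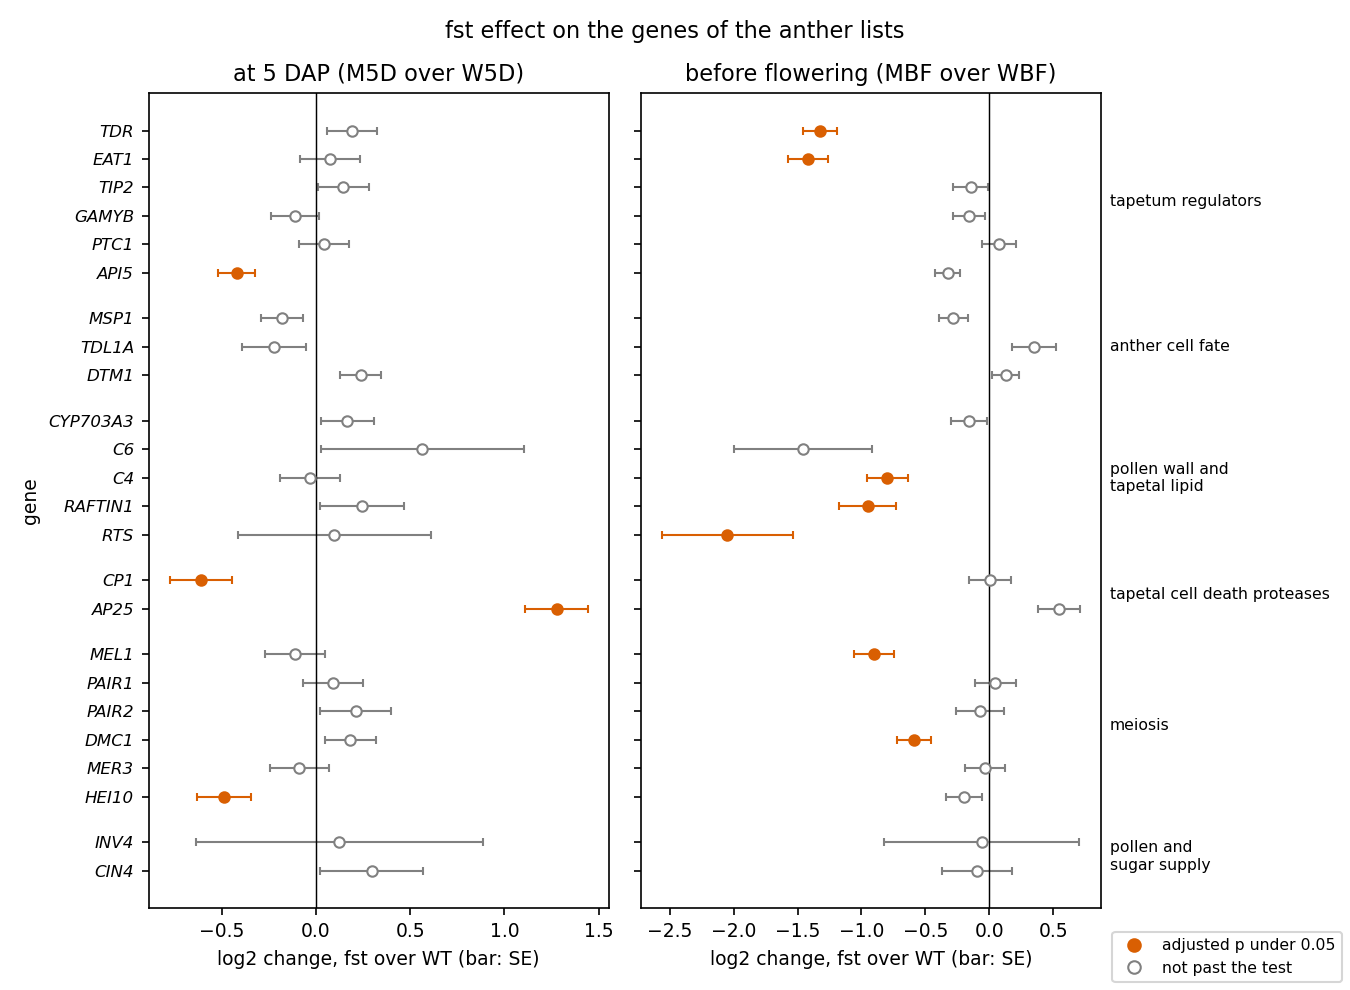
log2 change, fst over WT, of the 24 genes of the 6 anther lists at 5 DAP (left) and before flowering (right), with bars for the SE from limma and filled orange symbols for an adjusted p under 0.05. Before flowering 7 genes are lower (EAT1, TDR, RTS, RAFTIN1, C4, MEL1 and DMC1), and at 5 DAP AP25 is higher and API5, CP1 and HEI10 are lower.

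Between the stages, the other tapetum regulators went with TDR and EAT1 in part. TIP2 was lower at 5 DAP than before flowering in fst (log2 change -1.88, adjusted p = 2.32e-07 from limma) and in WT (-2.17, adjusted p = 5.78e-08), and so was GAMYB (-1.27, adjusted p = 4.96e-06, in fst, and -1.31, adjusted p = 3.61e-06, in WT). PTC1 and API5 passed the test in neither genotype. RAFTIN1 was lower at 5 DAP by -3.95 in fst (adjusted p = 1.57e-08) and by -5.14 in WT (adjusted p = 1.05e-09), and C6 by -3.69 (adjusted p = 0.000160) and -5.71 (adjusted p = 3.08e-06). C4, in contrast, was higher at 5 DAP in both, by 1.62 in fst (adjusted p = 4.95e-06) and 0.85 in WT (adjusted p = 0.00115). The WT value of C6 was -6.46 without WBF replicate 2. Of the 21 other genes, 3 were higher and 7 lower at 5 DAP in fst, beside 15.6% and 11.2% of all probe sets, and 4 were higher and 7 lower in WT, beside 16.4% and 14.9%.

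Genes of stamen identity, of the ovule and of green tissue were measured beside these changes. Of the 5 MADS-box genes of the stamen, none passed the test before flowering in limma, at the adjusted or the unadjusted p, and their median log2 change was 0.03. At 5 DAP 3 of the 5 were higher in fst (MADS2 0.74, MADS3 0.71 and MADS58 0.54), beside 6.22% of all probe sets, and the summed signal was 14262 to 16393 in M5D and 10265 to 10837 in W5D. Between the stages 3 of the 5 were lower and 1 higher at 5 DAP in fst, beside 11.2% and 15.6% of all probe sets. In WT 4 were lower and 1 higher, beside 14.9% and 16.4%. MADS16 was lower by a log2 change of -2.19 in fst and -2.71 in WT, while MADS58 was higher by 1.19 in fst and 0.67 in WT. Of 3 ovule genes, 2 were higher in fst before flowering, FST itself (0.98, adjusted p = 0.000928) and MADS21 (0.83, adjusted p = 0.0214), beside 1.81% of all probe sets, and their summed signal was 822 to 979 in MBF and 564 to 628 in WBF. The MADS21 call was lost without MBF replicate 1 (0.0692), MBF replicate 3 (0.0686) or WBF replicate 3 (0.0686). Of 2 genes of green tissue, RBCS and CAB2R, neither passed before flowering, with sums of 16943 to 17847 in MBF and 15782 to 17354 in WBF, and 1 (RBCS) was higher at an unadjusted p under 0.05. The parts of organ proportions and of anther stage in the lower TDR, EAT1 and RTS signals were not tested.

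Over the 12 arrays, the log2 signals of the 3 genes correlated with each other, at r = 0.964 for TDR and EAT1, 0.981 for TDR and RTS and 0.930 for EAT1 and RTS. These values share the arrays and rest largely on the fall between stages. Over the 6 arrays before flowering r was 0.965 for TDR and EAT1, 0.741 for TDR and RTS and 0.717 for EAT1 and RTS.

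Among 19102 other probe sets with a single gene and a signal above the median in at least 1 group, those most like each member over the 12 arrays were mostly genes without a name in the annotation. Nearest to TDR were LOC4327169 (r = 0.993), LOC4324858 (0.992), LOC4334322 (0.988), the potassium transporter gene HAK26 (0.988) and LOC4341600 (0.988). All 5 were lower in fst before flowering, from -0.77 for LOC4324858 to -2.66 for LOC4341600, which the study's annotation calls a gastric lipase and which gave means of 256 in MBF and 1532 in WBF. Nearest to EAT1 were LOC4325265 (r = 0.986), LOC4327574 (0.979), LOC4340559 (0.978), LOC4347462 (0.978) and LOC4328489 (0.977). All 5 were lower in fst as well, LOC4347462 by a log2 change of -2.26 and LOC4325265 by -1.90. Of all probe sets, 2.80% were called lower in this contrast. Likeness to TDR and EAT1 includes the arrays of this contrast, so these falls are a description.

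Nearest to RTS were LOC4326342 (r = 0.996), RAFTIN1 (0.994), LOC4325275 (0.994), LOC4344495 (0.993) and LOC4334322 (0.992), which was also among the 5 nearest to TDR. Of these, LOC4326342 (log2 change -1.39, adjusted p = 0.0265 from limma), RAFTIN1 and LOC4334322 (-1.45) were lower in fst before flowering, beside 2.80% of all probe sets. LOC4325275 (-0.26, adjusted p = 0.142) and LOC4344495 (-0.80, adjusted p = 0.0535) did not pass. Likeness to RTS includes the arrays of this contrast too, so these falls are also a description. LOC4334322 was bright before flowering, with means of 2967 in MBF and 8079 in WBF, and gave 23.2 in M5D and 22.7 in W5D. Among the probe sets compared, RAFTIN1 was the only gene of the anther lists among the 5 nearest to any of the 3. List genes with signals below the median in every group, such as TIP2, were not compared.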

How the data were processed

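Biotin-labelled RNA of 12 panicle pools was hybridized to Affymetrix Rice GeneChips. The authors computed the deposited intensity values by RMA (background correction, quantile normalization and a summary per probe set), run in Affymetrix Expression Console. Versions of both: not given in the sources used here. Signals, as these linear values are called, had a minimum of 3.00, above the floor of 1 set before the log2 step. Group means were then fitted to 57258 probe sets (123 controls left out) over all 12 arrays with limma 3.58.1 in R 4.3.3, followed by eBayes (8 residual degrees of freedom), with Benjamini-Hochberg adjustment over all probe sets within a comparison and a threshold of 0.05. The fit was tested on simulated data. The platform's gene table gives 1 gene for 22436 probe sets, several for 95 and none for 34727. No detection calls, genome coordinates or sequences were used.

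The 3 genes and the lists were chosen with earlier results of these data known. Of 99 list names, 34 matched a gene with a probe set by symbol or synonym, so lists are incomplete; 6 matches were left out as other genes of the same name. Named with values are the 3 genes, the list genes past the test before flowering, those with the largest and smallest change of a list, and the 5 probe sets most alike. Others were chosen after their values were seen. Alternatives were a second quantile normalization, median centring, a filter keeping 31327 probe sets above 32.2, removal of probe sets marked for cross-hybridization (45861 kept), eBayes with trend and robust, array weights, a replicate block, only the groups compared, each array left out, and arithmetic means. Leaving out both arrays numbered 2 before flowering was added after seeing the data.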

Additional observations from a re-analysis of the deposited data

Results flagged for a closer look

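The test of the difference of the fst effects between the stages (limma, adjusted over all probe sets) was passed by 4 genes of the tapetum and anther. The difference, 5 DAP minus before flowering, was 1.52 on the log2 scale for TDR (SE 0.19, adjusted p = 0.000593) and 1.49 for EAT1 (SE 0.22, adjusted p = 0.00201). Both passed the test under all 20 alternatives. It was 1.19 for RAFTIN1 (SE 0.31, adjusted p = 0.0408), which did not pass under 13 of 20 alternatives, with an adjusted p of up to 0.0941 (without MBF replicate 1). It was 0.77 for DMC1 (SE 0.19, adjusted p = 0.0323), which did not pass under 9 of 20, with an adjusted p of up to 0.134 (both arrays numbered 2 before flowering left out). In all 4 genes the log2 change of fst against WT was negative before flowering and between 0.07 and 0.24 at 5 DAP, where none passed the test. At 5 DAP the signals of RAFTIN1, TDR and EAT1 lay between 11.2 and 22.3 in both genotypes. TDR was the nearest to the lower quartile of the arrays (10.1 to 11.3), and all 3 lay below the median (30.8 to 33.6). The difference contains the change before flowering, and whether an effect of that size would have shown at these signals was not tested. DMC1 gave 66.8 ± 14.4 in M5D and 58.1 ± 2.19 in W5D (SD, n = 3 arrays each).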

How the results depend on the processing

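The direction of TDR and EAT1 before flowering, between the stages and in the difference of the effects was kept under every alternative run. Their calls were kept under every alternative with a test. The ratio of arithmetic means gives no p. The change of RTS before flowering stayed negative but did not pass under 11 of the 21 alternatives with a test. Its adjusted p from limma was 0.1001 by eBayes with trend and robust, 0.0930 with only the groups compared (log2 change -2.05 in both), and 0.0653 with array weights (-1.68). With each array left out it ran from -2.78 (without MBF replicate 2) to -1.55 (without MBF replicate 3). The difference of the RTS effects passed the test without MBF replicate 2 (2.88, against a lowest value of 1.64 without MBF replicate 3) and with both arrays numbered 2 before flowering left out (3.28). At 5 DAP, changes that passed the test nowhere turned sign, to -0.0101 for EAT1 without W5D replicate 2 (highest 0.14), and to -0.10 for RTS without M5D replicate 2 and -0.08 without W5D replicate 3 (highest 0.30).

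Replicate numbers did not pair the arrays: deviations of same-numbered arrays correlated at -0.10 to 0.07. With the number as a replicate block, the log2 change of RTS before flowering was -2.05 with an adjusted p of 0.0610, and that of RAFTIN1 had an adjusted p of 0.05002.

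The number of probe sets past the test before flowering was 2644, against 5088 with array weights, 1141 (without WBF replicate 1) to 3949 with each array left out, also 1614, 1382 and 1407 without MBF replicate 1, MBF replicate 2 and WBF replicate 2, and 746 with both arrays numbered 2 left out. For the difference of the effects it was 3636, against 2159 (without WBF replicate 1) to 3709, 2291 without W5D replicate 3 and 1554 with both left out. Leaving out arrays leaves fewer samples, and the cause of the other shifts was not tested. Median centring moved the split of calls before flowering to 749 higher and 2072 lower, against 1039 and 1605, and that of the difference to 2947 and 1249, against 2062 and 1574.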

Other observations

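INV4, a cell wall invertase gene of anthers, was the least even of the anther list genes on the WT arrays before flowering, with signals of 35.3, 116 and 46.9 in MBF and 31.6, 20.8 and 329 in WBF. Its WBF replicate 3 was the highest array, while MBF replicate 2 was the highest fst array, as in RTS. At 5 DAP INV4 gave 9.87 ± 0.579 in M5D and 9.19 ± 2.02 in W5D (SD, n = 3 arrays each), and it was lower than before flowering by a log2 change of -2.55 in fst (adjusted p = 0.0242 from limma) and -2.73 in WT (adjusted p = 0.0149). The fst call was lost under 6 of 21 alternatives, among them without MBF replicate 2 (-2.05, adjusted p = 0.105) or M5D replicate 1 (0.0609), 2 (0.0587) or 3 (0.0509), and the WT call without W5D replicate 2 (-2.59, adjusted p = 0.0505) and by eBayes with trend and robust (0.0572). The WT value rested on single arrays before flowering, at -1.50 (2.83-fold lower, adjusted p = 0.0113) without WBF replicate 3 and -3.49 (11.3-fold lower, adjusted p = 0.00388) without WBF replicate 2. These values are also taken against signals near the lower quartile at 5 DAP. INV4 was looked at after its values were seen.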
